A study of Mus musculus with 4 samples.

Results

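The GIMAP family, the GTPases of immunity-associated proteins, was examined in CD45.2+CD8+ cells sorted from B16-F10 melanoma tumors. The members were the protein-coding genes of the family in the tables, Gimap1, Gimap3, Gimap4, Gimap5, Gimap6, Gimap7, Gimap8 and Gimap9, which were 8 of the 55367 gene rows. They were found in the tables by symbol. Titles marked 2 libraries as WT and 2 as KO, all made from polyadenylated RNA of the sorted cells, and B16-F10 is a melanoma line of the mouse. The tumor model of the study compares WT mice with Satb1 F/F mice carrying Thpok-cre, which deletes floxed genes in cells of the CD4 lineage, but the labels named neither the allele nor the driver behind the KO libraries, and gave no age or number of animals. Nothing said that the libraries came from separate mice, so that p-values measure only the spread between these libraries, which may be technical.

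GIMAP proteins bind GTP through a shared AIG1-type domain, and most are made in T cells, B cells and NK cells. Several sit on membranes of lysosomes, mitochondria or the endoplasmic reticulum. The family is best known for the survival of naive lymphocytes, since rodents that lack Gimap5 or Gimap1 lose peripheral T cells. Satb1 encodes a chromatin organizer of T cell nuclei.

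The 8 genes form a single cluster on mouse chromosome 6, within chr6:48647234-48770851 of GRCm38, a span of 123.6 kb. From low to high coordinates the order was Gimap8, Gimap9, Gimap4, Gimap6, Gimap7, Gimap1, Gimap5 and Gimap3, with Gimap6 and Gimap3 on the minus strand and the others on the plus strand. Gimap8 had a coding sequence of 2064 bases, while the others ranged from 873 bases in Gimap9 to 984 bases in Gimap4. Gimap3 and Gimap5 were near-identical copies, with 809 of 895 aligned coding bases the same (90.4%). The other pairs without Gimap8 ranged from 55.8% to 67.9% identity over 20 pairs. The longest run shared by Gimap3 and Gimap5 was 140 bases, and it is shown because reads from it cannot be assigned to either gene. It lay in coding exon sequence, at chr6:48765681-48765820 on the minus strand in Gimap3 and at chr6:48752684-48752823 on the plus strand in Gimap5 (GRCm38), and all of its bases were the same in both genes.

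Gimap3 and Gimap5 shared run: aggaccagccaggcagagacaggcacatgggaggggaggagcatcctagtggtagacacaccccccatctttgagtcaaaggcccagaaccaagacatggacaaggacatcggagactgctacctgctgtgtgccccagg

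The promoter windows of 3 members are shown because these members differed most plainly in the comparison of the libraries. Gimap4 and Gimap7 were past the threshold in every setting tried, whereas Gimap9 was past it in none. The windows are RefSeq sequences on GRCm38.p6 that run from 250 bases before to 50 bases after the annotated start, all on the plus strand. Capitals mark, on either strand, the letters AGGAAG (which hold GGAA, the core read by ETS factors), TGTGGT (read by RUNX factors) and CTTTGA (read by TCF and LEF factors).

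Gimap4, chr6:48684328-48684627: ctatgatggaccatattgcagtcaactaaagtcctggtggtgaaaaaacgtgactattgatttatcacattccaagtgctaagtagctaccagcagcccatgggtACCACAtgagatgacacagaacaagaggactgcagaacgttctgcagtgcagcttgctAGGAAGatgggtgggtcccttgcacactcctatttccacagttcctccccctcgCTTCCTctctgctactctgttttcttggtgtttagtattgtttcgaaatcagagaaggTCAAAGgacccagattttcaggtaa
Gimap7, chr6:48718371-48718670: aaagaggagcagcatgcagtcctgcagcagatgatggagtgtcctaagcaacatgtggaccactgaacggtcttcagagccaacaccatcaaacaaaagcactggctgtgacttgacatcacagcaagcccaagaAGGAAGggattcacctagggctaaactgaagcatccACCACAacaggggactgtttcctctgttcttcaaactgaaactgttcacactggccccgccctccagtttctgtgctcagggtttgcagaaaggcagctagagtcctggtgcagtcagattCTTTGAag
Gimap9, chr6:48675885-48676184: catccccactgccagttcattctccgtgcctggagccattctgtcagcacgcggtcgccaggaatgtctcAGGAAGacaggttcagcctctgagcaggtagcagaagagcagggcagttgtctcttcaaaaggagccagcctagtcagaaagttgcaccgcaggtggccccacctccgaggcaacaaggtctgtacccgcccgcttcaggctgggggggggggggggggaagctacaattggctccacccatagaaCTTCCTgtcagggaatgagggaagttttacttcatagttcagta

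The windows of Gimap4 and Gimap7 each held all 3 motifs, and that of Gimap9 held only AGGAAG. The motifs did not follow the calls over the family. Gimap3 and Gimap5, which were past the threshold, also held only AGGAAG, and Gimap6, which was past it too, held none of the 3. Over the family, AGGAAG was found in 7 of 9 windows, 1 for each gene but Gimap6, where Gimap8 has more than one window and 35.4% of 32851 mouse promoter windows of the same length held it. TGTGGT was found for Gimap1, Gimap4 and Gimap7, against 16.8% of all windows, and CTTTGA for Gimap4 and Gimap7, against 16% of all windows. Of the other letters searched on both strands, CCGGAA (14.9% of all windows) and AGATAA (11.2%) were in no Gimap window, and TATAAA (13.6%) was in that of Gimap6. CCGGAA and AGGAAG are both read by ETS factors and both hold GGAA. A window without these letters can still hold GGAA, as that of Gimap6 did. These matches describe letters and were not measured as binding.

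The libraries held between 4017875 and 5382915 counts on genes, and a count of 3 corresponded to between 0.521 and 0.897 normalized CPM, that is CPM computed on library totals scaled by TMM factors. Counts of T cell genes were low for a sort of CD8+ cells. A list of 10 T cell identity genes, among them Cd3e, Cd8a and Trac, took 0.00672% and 0.0106% of gene counts in the WT-labeled libraries and 0.244% and 0.123% in the KO-labeled ones, while 13 macrophage or monocyte genes took between 2.34% and 4.05% in the 4 libraries. Satb1 had 7 and 5 counts in the WT-labeled libraries and 131 and 55 in the KO-labeled ones, opposite to a loss, although Thpok-cre would leave the gene in place in CD8+ cells. Its log2 fold change was 3.36 with an SE of 0.79 and did not pass the threshold (edgeR adjusted p = 0.115). Xist had 435 and 216 counts against 0 and 3, and Ddx3y, which is on the Y chromosome, had 0 and 0 against 188 and 81, so that sex and label cannot be told apart. Neither pair of libraries of one group agreed within sampling noise.

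Gimap transcripts were more abundant in the KO-labeled libraries. Together the 8 genes had 67 and 106 counts in the WT-labeled libraries and 1882 and 1555 in the KO-labeled ones. As a share of gene counts this was 0.00167% in WT 1 (95% interval 0.00129 to 0.00212, exact Clopper-Pearson, counting error only), 0.00249% in WT 2 (0.00204 to 0.00301), 0.0420% in KO 1 (0.0401 to 0.0439) and 0.0289% in KO 2 (0.0275 to 0.0304). Both KO-labeled libraries lay above both WT-labeled ones, and the interval of each KO-labeled library lay above those of both WT-labeled ones. The mean share was 0.00208% ± 0.00058 (SD, n = 2) in the WT-labeled libraries and 0.0354% ± 0.00928 (SD, n = 2) in the KO-labeled ones, a ratio of 17.1. With 2 libraries a group, the smallest p that exact permutation allows is 0.33, and the sum was not tested. In sorted bulk cells, more cells of a type and more RNA per cell cannot be told apart.

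Each gene was then taken from a fit over all genes that passed a filter on low counts, in which KO was compared with WT. Of the 8 members 7 were tested, and 5 rose past the adjusted p threshold of 0.05: Gimap3, Gimap4, Gimap5, Gimap6 and Gimap7. Over all 11837 genes tested, 0.549% were higher and past the threshold, and 0.574% were past it in either direction. Both KO-labeled libraries were above both WT-labeled ones for the 7 members tested, which was also the case for 25.3% of all genes tested. At an unadjusted p under 0.05 the 7 tested members were all higher, against 9.44% of all genes. Their log2 fold changes had a median of 3.99 and a range from 1.78 to 5.11, beside a median of 0.05 over all genes tested. Of the 7 members, 6 passed the filter only through the KO-labeled libraries, and Gimap4 alone passed on the WT-labeled libraries as well, so that these counts and this median describe the members and lend the comparison no support of their own.

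**Figure D1:**
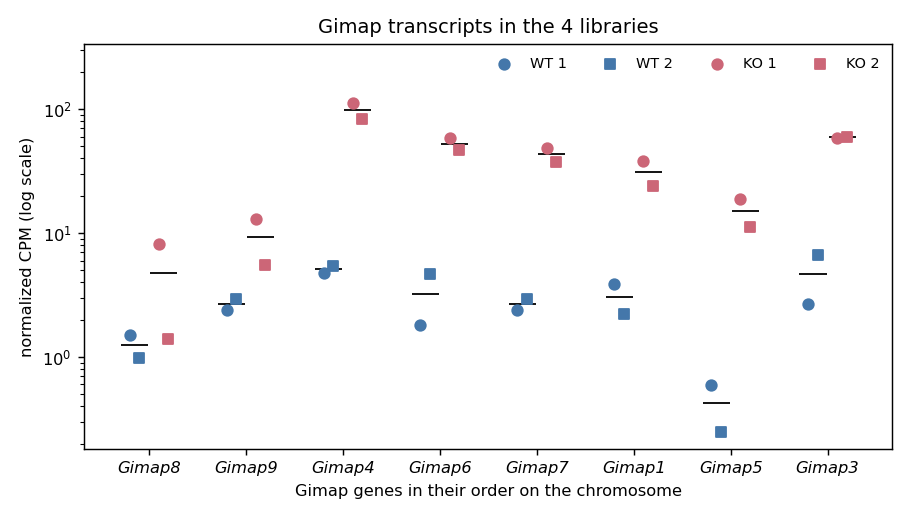
Normalized CPM (log scale) of the 8 Gimap genes in their order on the chromosome, with 1 point per library and a line at the mean of each group. For Gimap8 the KO 2 library, at 1.39, lay between the WT-labeled libraries (0.986 and 1.5), and for the other 7 genes both KO-labeled libraries lay above both WT-labeled ones.

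Gimap4, whose product is linked to the death of T cells after their maturation, had the most counts of the family in every library but WT 2. There Gimap3 had more, with 27. The counts of Gimap4 were 16 (WT 1), 22 (WT 2), 593 (KO 1) and 481 (KO 2). The groups were far apart relative to the spread within them, with 5.10 ± 0.45 normalized CPM (SD, n = 2) in the WT-labeled libraries and 97.9 ± 20.3 (SD, n = 2) in the KO-labeled ones. The log2 fold change was 4.25 with an SE of 0.50 (edgeR quasi-likelihood test, adjusted p = 0.0172), and the gene ranked 6 by p over all genes tested.

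Gimap7, which encodes a GTPase that dimerizes with its relatives, had 8 and 12 counts in the WT-labeled libraries and 258 and 215 in the KO-labeled ones. In normalized CPM this was 2.68 ± 0.40 (SD, n = 2) against 43.1 ± 8.14 (SD, n = 2), a log2 fold change of 3.99 (SE 0.56, edgeR adjusted p = 0.0269). Gimap6, whose product binds the ATG8-family protein GABARAPL2 of the autophagy machinery, had 6 and 19 counts against 308 and 271. The libraries labeled WT differed from each other more for Gimap6 than for Gimap7, with 3.24 ± 2.04 normalized CPM (SD, n = 2) against 52.7 ± 7.96 (SD, n = 2) in the KO-labeled ones. The log2 fold change of Gimap6 was 3.99 (SE 0.60, edgeR adjusted p = 0.0295), and without WT 1 it was 3.42 and no longer past the threshold (edgeR adjusted p = 0.0593, range over the alternatives 3.08e-07 to 0.0593).

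Gimap3 and Gimap5, the near-identical pair, encode proteins anchored in intracellular membranes. Gimap3 had 9 and 27 counts in the WT-labeled libraries and 310 and 346 in the KO-labeled ones, with 4.67 ± 2.80 normalized CPM (SD, n = 2) against 59.4 ± 0.98 (SD, n = 2). Its log2 fold change was 3.64 (SE 0.57, edgeR adjusted p = 0.0317), with 3.10 without WT 1 and 4.40 without WT 2. Gimap3 was past the threshold in 16 of the 17 alternatives, all but the fit without WT 1. Gimap5 had a large fitted change and the fewest counts of the family in the WT-labeled libraries, with 2 and 1 counts against 100 and 65. The ratio of its pooled counts, scaled to library size, was 36.9 with an exact Poisson 95% interval from 12.4 to 181. That interval covers counting error only and not the larger spread between replicates. The fitted log2 fold change of 5.11 (SE 0.89, edgeR adjusted p = 0.0466) depended on the prior count, being 4.20 with a prior count of 2. Gimap5 was past the threshold in 12 of the 17 alternatives.

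The separate values of the pair are uncertain. Of the stretches of 50 bases in the transcripts of each gene, 8.15% for Gimap3 and 6.84% for Gimap5 occurred in transcripts of other genes as well, and how the counting treated such reads was not given in the sources used here. Summed, Gimap3 and Gimap5 had 11 and 28 counts in the WT-labeled libraries against 410 and 411. The sum was 5.09 ± 2.55 normalized CPM (SD, n = 2) in the WT-labeled libraries and 74.5 ± 4.42 (SD, n = 2) in the KO-labeled ones, 14.6 times as much.

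Gimap1, which mature T and B cells need to persist, was not past the threshold. It had 13 and 9 counts in the WT-labeled libraries and 201 and 137 in the KO-labeled ones, a log2 fold change of 3.34 (SE 0.62, edgeR adjusted p = 0.0537). It was past the threshold in 9 of the 17 alternatives, with adjusted p-values from 0.000122 to 0.117. Of its exonic bases 36.0% are shared with Gimap1os on the opposite strand. No source states the strand setting, so whether the counting could assign reads from those bases is not known. Gimap1os had 0 and 2 counts against 42 and 34 and did not pass (log2 fold change 4.58, edgeR adjusted p = 0.141). The readthrough row Gm28053, which joins exons of Gimap7, Gimap1 and Gimap5, had 0, 0, 1 and 0 counts.

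Gimap9 and Gimap8, the outermost pair on the low-coordinate side of the cluster, had smaller differences. Gimap9 had 8 and 12 counts in the WT-labeled libraries and 69 and 32 in the KO-labeled ones, with 2.68 ± 0.40 normalized CPM (SD, n = 2) against 9.31 ± 5.31 (SD, n = 2). Its log2 fold change of 1.78 had an SE of 0.78 and did not pass the threshold (edgeR adjusted p = 0.359, range over the alternatives 0.0963 to 1). Gimap8, which carries more than one GTPase domain, had 5 and 4 counts against 43 and 8 and did not pass the filter. Its groups overlapped, with 1.24 ± 0.36 normalized CPM (SD, n = 2) against 4.77 ± 4.77 (SD, n = 2). Without the filter its log2 fold change was 1.87 (SE 1.09, edgeR adjusted p = 0.577), and DESeq2 gave 1.93 (adjusted p = 0.601). For both genes KO 1 was well above KO 2, and the log2 fold change of Gimap9 was 1.04 without KO 1 and 2.23 without KO 2.

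**Figure D2:**
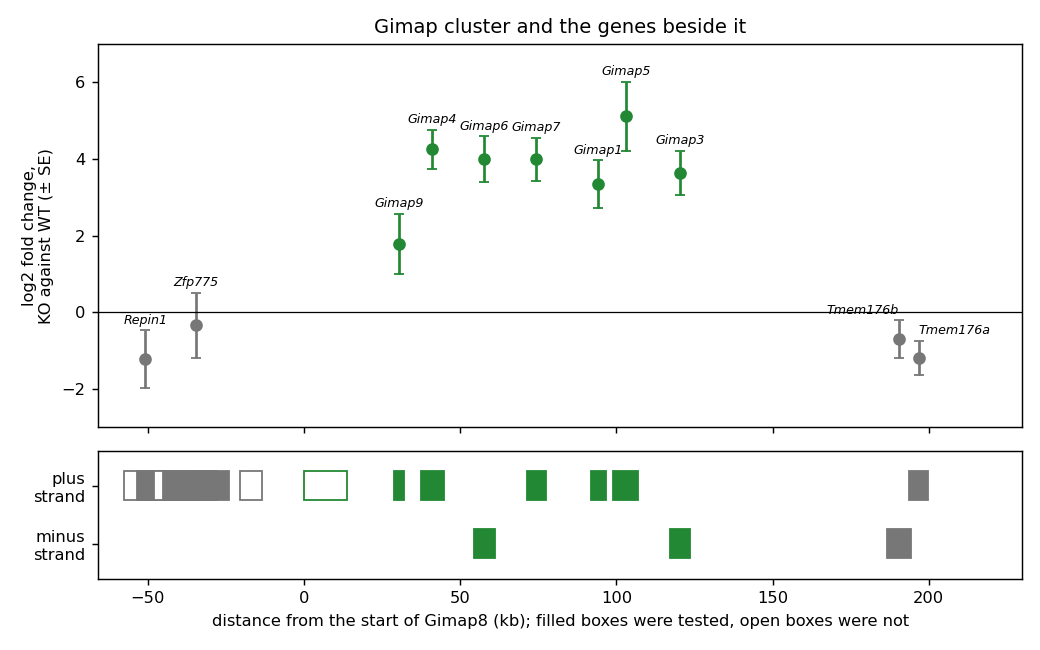
Upper panel, log2 fold change of KO against WT with its SE for the Gimap genes (green) and neighboring genes (gray) that were tested, by distance in kb from the start of Gimap8; lower panel, the extent of each gene on its strand, with filled boxes tested and open boxes not tested. The 7 tested Gimap genes lie between 1.78 and 5.11, and the 4 tested neighbors lie between -1.22 and -0.34.

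The genes beside the cluster were compared by position alone, with the nearest 5 protein-coding genes on each side. On the low-coordinate side, Repin1, a zinc finger gene, had 39 and 23 counts in the WT-labeled libraries and 15 and 26 in the KO-labeled ones (log2 fold change -1.22, edgeR adjusted p = 0.499). Zfp775, another zinc finger gene, had 14 and 10 against 12 and 17 (log2 fold change -0.34, edgeR adjusted p = 0.892). AI854703 had 0, 2, 13 and 8 counts and was not tested.

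On the other side, Tmem176b and Tmem176a are membrane protein genes abundant in myeloid cells. Tmem176b had 646 and 1606 counts against 1078 and 904 (log2 fold change -0.71, edgeR adjusted p = 0.552), and Tmem176a had 619 and 1186 against 537 and 617 (log2 fold change -1.19, edgeR adjusted p = 0.290). Gm45021, Gm44965, Aoc1 and Doxl2 had 0 counts in all libraries, and 1600015I10Rik had no row of its own under that symbol. Of the 4 neighbors tested, 0 were past the threshold in edgeR and 0 in DESeq2, and 1, Tmem176a, had an unadjusted p under 0.05.

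The members were also set against one another as levels per kb of merged exons, in normalized CPM per kb. In the KO-labeled libraries the mean order was Gimap4 at 53.3 ± 11.1 (SD, n = 2), Gimap3 at 23.0 ± 0.38, Gimap7 at 18.5 ± 3.50, Gimap6 at 15.1 ± 2.28, Gimap1 at 10.1 ± 3.28, Gimap9 at 5.67 ± 3.23, Gimap5 at 3.64 ± 1.30 and Gimap8 at 1.29 ± 1.29. Neighbors in that order whose library ranges overlapped were Gimap7 with Gimap6, Gimap1 with Gimap9, and Gimap9 with Gimap5. In the WT-labeled libraries the order was Gimap4 at 2.78 ± 0.24 (SD, n = 2), Gimap3 at 1.81 ± 1.09, Gimap9 at 1.63 ± 0.24, Gimap7 at 1.15 ± 0.17, Gimap1 at 0.993 ± 0.38, Gimap6 at 0.926 ± 0.58, Gimap8 at 0.335 ± 0.097 and Gimap5 at 0.102 ± 0.060. There Gimap3 and Gimap9, Gimap7 and Gimap1, and Gimap1 and Gimap6 overlapped. Gimap4 led in both groups, and Gimap9 stood in place 3 in the WT-labeled libraries and in place 6 in the KO-labeled ones, on a per-length scale that rests on 8 and 12 counts in the former.

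Markers of T cells moved with the family. The 10 T cell identity genes had 270 and 453 counts in the WT-labeled libraries against 10915 and 6636, and 9 of them were past the threshold, all higher, with log2 fold changes over the 10 genes from 3.10 to 4.89 and a median of 3.68. Cd3e had a log2 fold change of 3.65 and Cd8a one of 4.34 (edgeR adjusted p = 0.0221 and 0.0172), and Cd247 did not pass (3.10, edgeR adjusted p = 0.124). Without WT 1, 4 of the 10 were past it. For each count on these 10 genes the Gimap family had 0.248 counts in WT 1 (95% interval 0.187 to 0.325, counting error only), 0.234 in WT 2 (0.188 to 0.290), 0.172 in KO 1 (0.164 to 0.181) and 0.234 in KO 2 (0.222 to 0.248). KO 1 lay below the other 3 libraries, and KO 2 lay at the value of WT 2, so that the groups differed by little on this scale: the mean was 0.241 ± 0.010 (SD, n = 2) in the WT-labeled libraries and 0.203 ± 0.044 (SD, n = 2) in the KO-labeled ones, a ratio of 0.844. The ratio depended on the genes in the denominator, being 1.20 with the CD3 chain genes Cd3d, Cd3e, Cd3g and Cd247 and 0.547 with Lck alone.

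Relative to T cell counts, 5 of the 8 members overlapped between the groups, 1 was higher and 2 were lower in both KO-labeled libraries. Over all genes tested, 95.5% were lower and 0.811% were higher in both KO-labeled libraries on this scale, so that a gene lower per T cell count was the usual case. Gimap9 had 2.96 counts per 100 T cell identity counts in WT 1 (95% interval 1.27 to 5.92, counting error only) and 2.65 in WT 2 (1.36 to 4.67), against 0.632 in KO 1 (0.491 to 0.801) and 0.482 in KO 2 (0.330 to 0.681). Its intervals did not overlap between the groups, and the KO mean was 0.199 times the WT mean. Gimap8 had 1.85 (0.596 to 4.38) and 0.883 (0.240 to 2.28) against 0.394 (0.285 to 0.531) and 0.121 (0.0520 to 0.238), and the intervals of WT 2 and KO 1 overlapped.

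Gimap5 was the gene that was higher, with 0.741 (0.0893 to 2.70) and 0.221 (0.00558 to 1.24) against 0.916 (0.745 to 1.12) and 0.980 (0.755 to 1.25), and all its intervals overlapped. Gimap7 had the same mean in both groups to within its spread, 2.81 ± 0.22 (SD, n = 2) against 2.80 ± 0.62 (SD, n = 2) counts per 100 T cell identity counts. The corresponding means of Gimap4 were 5.39 ± 0.76 (SD, n = 2) and 6.34 ± 1.28 (SD, n = 2), again with overlapping libraries. No test was made on these ratios.

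**Figure D3:**
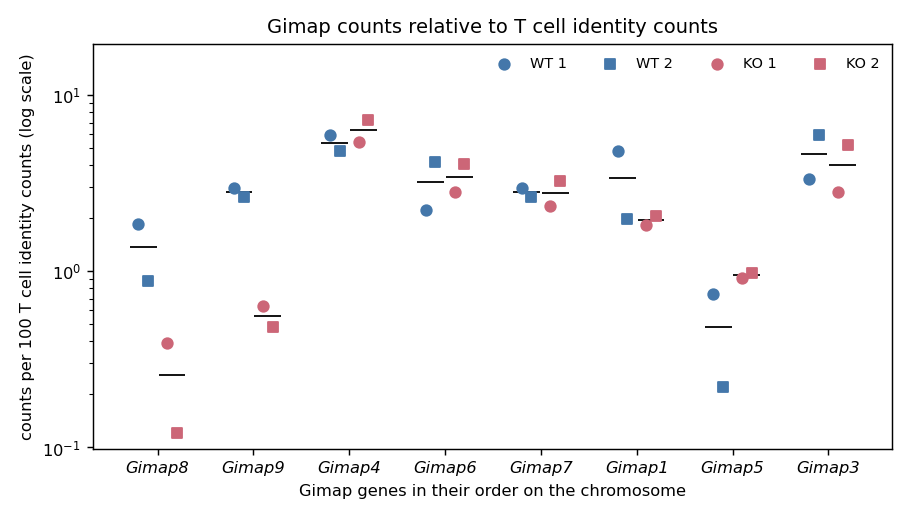
Counts of each Gimap gene per 100 counts on the 10 T cell identity genes (log scale), with 1 point per library and a line at the mean of each group. Gimap9 is at 2.96 and 2.65 in the WT-labeled libraries and at 0.632 and 0.482 in the KO-labeled ones, and for 5 of the 8 genes the groups overlap.

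As a share of the counts on the family, Gimap9 made up 11.9% and 11.3% in the WT-labeled libraries and 3.67% and 2.06% in the KO-labeled ones, and Gimap8 7.46% and 3.77% against 2.29% and 0.515%. Gimap4 made up 23.9% and 20.8% against 31.5% and 30.9%. Gimap5 made up 2.99% and 0.943% against 5.31% and 4.18%, and Gimap7 11.9% and 11.3% against 13.7% and 13.8%. The other 3 members overlapped between the groups, with 19.4% and 8.49% against 10.7% and 8.81% for Gimap1, 13.4% and 25.5% against 16.5% and 22.3% for Gimap3, and 8.96% and 17.9% against 16.4% and 17.4% for Gimap6. Shares of a fixed total cannot move independently, and nothing was read from which members overlapped.

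Counts on markers of other cells were read as well, and their part in the Gimap values was not tested. Of the tested genes, 1 of 8 in the melanoma list and 3 of 4 in the fibroblast list were past the threshold. In the B cell, CD4 T cell, endothelium, neutrophil and erythroid lists 0 were past it, and no gene of the NK cell list was tested. The melanoma list of 8 genes had 907 and 1140 counts in the WT-labeled libraries and 10728 and 7081 in the KO-labeled ones. The fibroblast list of 6 genes had 31 and 13 against 6651 and 981. Lists of other lymphocytes, in which Gimap genes are also made, were counted as well. The B cell list of 6 genes had 64 and 182 counts against 27 and 80, with Pax5 at 0 in all libraries, the NK cell list of 5 genes had 0 and 4 against 6 and 2, and the CD4 T cell list of 3 genes 152 and 189 against 125 and 174. As shares of gene counts, the B cell list took 0.00159% and 0.00427% against 0.000603% and 0.00149%, and the CD4 T cell list 0.00378% and 0.00444% against 0.00279% and 0.00323%. Single genes carried most of both sums, except for the B cell list in KO 1, where Cd79b had 12 of 27 counts. Cd79b, a B cell receptor chain gene, had 61 and 182 counts against 12 and 73, whereas Cd79a, its partner, had 0 and 0 against 7 and 3. Foxp3, a gene of regulatory T cells, had 146 and 156 counts against 120 and 132, whereas Cd4 had 6 and 30 against 3 and 35, with overlapping groups. The endothelium list of 8 genes had 168 and 149 against 111 and 212, the neutrophil list of 5 genes 515 and 468 against 248 and 527, and the erythroid list of 5 genes 23 and 3 against 0 and 229. The dendritic cell list of 8 genes took between 1.25% and 2.25% of gene counts, most of them on Cd74, a gene of antigen presentation (log2 fold change -0.68, edgeR adjusted p = 0.666). Of its 6 tested genes 1 rose, Ccr7, a homing receptor gene that naive T cells also use (log2 fold change 5.15, edgeR adjusted p = 0.0172). Zbtb46, Cd209a and Batf3, named after their values were seen, had log2 fold changes of 3.23, 2.63 and -1.48 that did not pass (edgeR adjusted p = 0.223, 0.190 and 0.258).

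The macrophage or monocyte genes went mostly the other way from the Gimap genes. Of 13 genes 11 had a negative log2 fold change, with a median of -1.20, 0 were past the threshold in edgeR and 2 in DESeq2, and 5 had an unadjusted p under 0.05. Lyz2, the lysozyme gene with the most counts of the list, was at 0.01 on the log2 scale of change (edgeR adjusted p = 0.997), C1qb at -1.37 (0.392) and Apoe at -0.73 (0.602). Ms4a7, named after its values were seen, was at -1.66 (edgeR adjusted p = 0.175). Over all 11837 genes tested, 1618 had an unadjusted p under 0.05 in either direction, and DESeq2 called 374 genes.

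The genes whose pattern over the 4 libraries was most like that of the summed family were Gm43434, Stk26, Skap1, Cd3e and Slc15a2, in that order. Likeness was the Euclidean distance between centered log2 normalized CPM values over the 4 libraries, from 0.252 for Gm43434 to 0.368 for Slc15a2. Skap1, an adaptor gene of T cell receptor signaling, had 7 and 9 counts in the WT-labeled libraries and 218 and 199 in the KO-labeled ones (log2 fold change 4.12, edgeR adjusted p = 0.0269). With 4 points this measure mostly reflects the size of the difference between the groups.

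Lists of genes on processes that GIMAP proteins are known for were read from the same fit. Of 15 genes of T cell quiescence and naive T cells, 1 rose, the transcription factor gene Tcf7 (log2 fold change 4.75, edgeR adjusted p = 0.0317), and the list had a median of 0.34. Lef1, named after its values were seen, had 1 and 5 counts against 76 and 76 and did not pass (log2 fold change 4.08, edgeR adjusted p = 0.0778), and DESeq2 called 2 of the 15. Slfn2 and Btg1, which hold T cells in quiescence, had log2 fold changes of -0.60 and 0.02 (edgeR adjusted p = 0.672 and 0.989). DESeq2 called 374 of the 21241 genes it tested, 311 higher and 63 lower. The number that edgeR called in this list changed in some fits with 1 library left out, as did that over all genes.

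Of 15 tested genes of the BCL-2 family, which governs cell death and to which GIMAP proteins have been linked, 0 were past the threshold in edgeR and 3 had an unadjusted p under 0.05, with a median log2 fold change of -0.59. Over all 11837 genes tested, 1618 had an unadjusted p under 0.05 in either direction. DESeq2 called 2 genes of this family, beside the 374 it called over all genes. In edgeR the count of 0 did not hold in every fit with 1 library left out. Mcl1, Bcl2l1 and Bcl2a1d, genes of survival proteins, had log2 fold changes of -0.42, -0.62 and -0.05. Of 14 genes of the ATG8 system of autophagy, 0 were past the threshold in edgeR and in DESeq2 and 2 had an unadjusted p under 0.05, with a median of -0.02. Gabarap, Sqstm1 and Map1lc3b had log2 fold changes of -1.33, 0.00 and -0.08, and Gabarapl2, named here for its binding to the Gimap6 product and outside the rule for naming genes, had one of -0.25 (edgeR adjusted p = 0.827).

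Other GTPase genes served as a comparison within the protein class. Of 17 tested genes of interferon-inducible GTPases, 0 were past the threshold in edgeR and in DESeq2 and 1 had an unadjusted p under 0.05, with a median log2 fold change of 0.37. The count of 0 in edgeR did not hold in every fit with 1 library left out. Gbp2, Irgm1 and Igtp had log2 fold changes of 0.37, 0.06 and -0.36. Of 12 genes of Ras-like GTPases and their regulators in lymphocytes, 0 were past it in edgeR and in DESeq2 and 3 had an unadjusted p under 0.05, with a median of 0.21. Here too the count of 0 in edgeR did not hold in every fit with 1 library left out. Arhgdib, Rap1b and Rac2, the most abundant of the list, had log2 fold changes of -0.24, -0.20 and -0.27. The 3 genes under an unadjusted p of 0.05, named after their values were seen, were Rasgrp1, Arhgap15 and Rab27a. They had log2 fold changes of 1.75, 2.33 and 2.01 (edgeR adjusted p = 0.287, 0.257 and 0.271). The Gimap median of 3.99 and that of the T cell identity list, 3.68, stood beside these as descriptions, without a test between lists. Large medians were not limited to these: the melanoma list had one of 2.42 over 8 tested genes, with 1 past the threshold, and the fibroblast list one of 7.46 over 4 tested genes, with 3 past it.

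**Figure D4:**
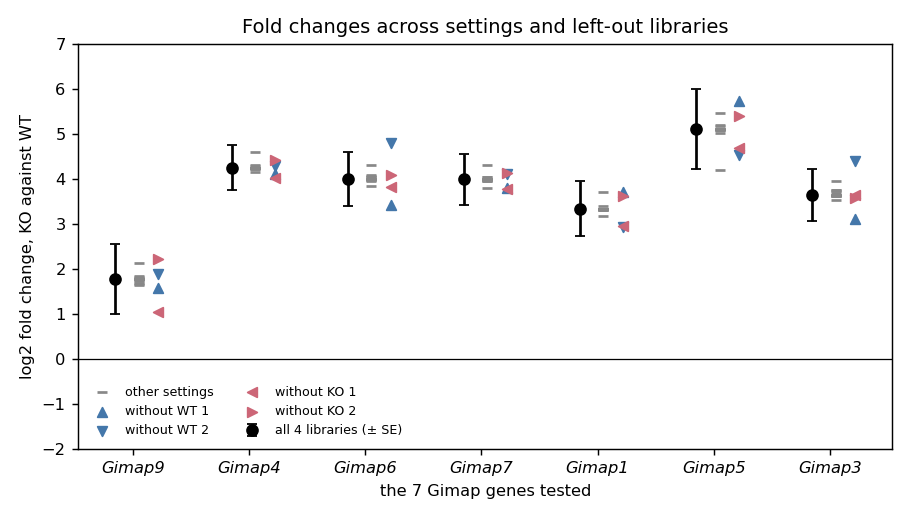
Log2 fold change of KO against WT for the 7 tested Gimap genes, with the value from all 4 libraries and its SE (black), values under other settings (gray dashes) and values with 1 library left out (triangles). All values lie above 0, and the widest ranges are those of Gimap5, from 4.20 to 5.74, and Gimap6, from 3.42 to 4.80.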

How the data were processed

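Polyadenylated RNA was sequenced from 4 libraries, grouped by their titles as 2 WT and 2 KO. The authors deposited raw read counts for every gene in a separate table for each library. Per the submitters' processing notes, reads were aligned with HISAT2 2.1.0 to mm10 and counted with HTSeq 0.11.0, and the annotation, strand setting and treatment of ambiguous reads are not given in the sources used here. Summary rows entered neither totals nor tests. Reads that did not align made up between 30.3% and 44.2% of all reads, ambiguous reads between 0.83% and 1.09% and reads counted on genes between 20.5% and 28.8%, and the remainder lay outside counted features, aligned with low quality or aligned in several places.

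The counts were fitted with edgeR 4.0.16 under R 4.3.3. Low genes were removed by filterByExpr (minimum count 10, minimum total 15), TMM factors scaled the libraries, and the groups were compared in a quasi-likelihood F test without covariates, two-sided, with Benjamini-Hochberg adjustment over all 11837 genes tested and a threshold of 0.05. The prior count was 0.125, and an SE is the log2 fold change divided by the square root of F. Shares have exact 95% intervals for counting error alone, because no molecular identifiers mark duplicate reads. DESeq2 1.42.0, other scaling factors and filters, a replicate block and each library left out in turn were alternatives. A crossed block and counts thinned to the smallest library were added after seeing the data.

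Gene positions came from GENCODE M21 (GRCm38), which matched 53365 (96.4%) of the gene rows by symbol, and promoters from RefSeq (GRCm38.p6). Coordinates are 1-based. Coding sequences were aligned with Biopython 1.88, and the figures used Python 3.11.15 with matplotlib 3.10.9. All Gimap genes, Satb1, the 10 neighbors of the cluster, up to 3 genes of each list (first those past the threshold, then the most abundant) and the 5 genes most like the summed family were named by rule. Other genes, such as Cd247, Pax5, Cd79a and Gabarapl2, and the genes that make up a denominator, were named outside it. The members and lists were chosen with earlier results of these data known. Levels of proteins and counts per exon were not analyzed here.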

Additional observations from a re-analysis of the deposited data

How the results depend on the processing

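All 7 tested Gimap genes kept a positive fold change in all 17 alternatives, and between 4 and 6 of them were past the threshold in each. Gimap4 and Gimap7 were past it in 17 of 17, Gimap3 and Gimap6 in 16, Gimap5 in 12, Gimap1 in 9 and Gimap9 in 0. Gimap5 had the largest log2 fold change of the 7 in the reported fit, but without WT 2 it was 4.54 against 4.80 for Gimap6. It lost its call with upper-quartile factors, TMMwsp factors, a filter on CPM of at least 1 in 2 libraries, with antigen receptor, ribosomal protein and mitochondrial genes taken out, and without KO 1. The cause was not tested. Over all genes the number past the threshold was 68, and became 136 (133 higher and 3 lower) with library size alone, 583 (505 higher and 78 lower) without a filter, 374 (311 higher and 63 lower) in DESeq2, and 556 (476 higher and 80 lower) in the likelihood ratio test, against 65 higher and 3 lower in the reported fit. With a library left out it was between 113 and 1249, that is 106 higher and 7 lower without WT 1, 203 and 25 without WT 2, 99 and 24 without KO 1, and 725 and 524 without KO 2. Library size alone moved the median log2 fold change of all genes from 0.05 to 0.38. The labels did not pair same-numbered libraries. The deviations of WT 1 and KO 1 correlated at -0.18 over 11837 genes, which cannot decide whether such libraries were paired. With the replicate block 215 genes were past the threshold, 6 of them Gimap genes, and with the crossed pairing, chosen after seeing the data, 647. The family share ratio was between 13.6 and 21.3 over its alternatives (14.3 to 21.3 and 13.9 to 20.2 with a WT or KO library left out), and the family count per T cell identity count ranged from 0.715 to 0.972 with a library left out and was 1.20 with the CD3 chain genes and 0.547 with Lck as the denominator. With a library left out the lone sample is assumed to vary like the other group. Counts limit the precision in the libraries labeled WT, where no Gimap gene had over 27.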
